A study of Mus musculus with 6 samples.

Results

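The genes examined were Srebf1, Srebf2, Hmgcs1, Sqle, Acaca, Fasn, Scd1 and Scd2, which make cholesterol and fatty acids or switch that synthesis on. They were taken by gene symbol from a table of read counts for 46095 genes, in which all 8 had a row. All 8 passed edgeR's filter on low counts, as did 14611 genes in total. The RNA came from freshly isolated primary renal tubular epithelial cells (PTECs) of mice aged 10 weeks on a C57 background, with 3 mice under each genotype label. Libraries labelled VHL-KO (replicates 1, 2 and 4) came from Ksp-Cre; VHL fl/fl mice, in which Cre recombinase under the Cdh16 (Ksp-cadherin) promoter acts in the tubular epithelium. The other label, VHL-KO;SETD2-KO (replicates 2, 3 and 4), is called double-knockout here and was given to libraries that came from mice with the same Cre and floxed VHL that also carried Setd2 fl/fl. VHL was thus a target of the Cre under both labels, there was no library with intact VHL, and the comparison addressed what loss of Setd2, the enzyme that trimethylates histone H3K36, adds to loss of VHL. A Cre of this kind leaves both genes whole in endothelial, glomerular, stromal and blood cells.

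Cholesterol and fatty acids are built from acetyl-CoA, and the enzymes of both pathways are transcribed under the sterol regulatory element binding proteins (SREBPs). SREBP2, encoded by Srebf2, acts mainly on sterol synthesis and uptake, and SREBP1, encoded by Srebf1, acts mainly on fatty acid synthesis. Both are held in the endoplasmic reticulum by Scap and the Insig proteins while sterols are plentiful, and are cut free in the Golgi when sterols run low, so their activity is set largely by processing of the protein and not by its mRNA. The proximal tubule normally takes most of its energy from burning fatty acids, and its synthesis of lipid is low beside that of liver.

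Promoter sequence was read for the members with an entry in the RefSeq table of transcription start regions (GRCm38.p6), which were Hmgcs1, Fasn, Srebf1, Srebf2 and Acaca. The start listed for Acaca, at 84195438 on chromosome 11, lies inside the gene as GENCODE places it (from 84129672), so that its window is not that of the first GENCODE start. The 250 bases upstream of the start site are shown for Hmgcs1, on chr13:119690101-119690350 (+), and for Fasn, on chr11:120824548-120824797 (-). These 2 genes are shown because they stand for sterol synthesis and for fatty acid synthesis, and because they are the members that departed furthest downward and upward in the library described below. Capitals mark the letters of a sterol regulatory element core (TCACNCCAC) and of the CCAAT box bound by NF-Y (CCAAT, or ATTGG on the other strand).
Hmgcs1: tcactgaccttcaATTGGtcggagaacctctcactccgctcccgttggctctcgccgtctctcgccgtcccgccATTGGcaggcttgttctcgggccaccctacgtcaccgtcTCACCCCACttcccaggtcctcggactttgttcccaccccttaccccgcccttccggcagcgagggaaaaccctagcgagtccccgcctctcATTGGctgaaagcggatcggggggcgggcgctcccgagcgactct
Fasn: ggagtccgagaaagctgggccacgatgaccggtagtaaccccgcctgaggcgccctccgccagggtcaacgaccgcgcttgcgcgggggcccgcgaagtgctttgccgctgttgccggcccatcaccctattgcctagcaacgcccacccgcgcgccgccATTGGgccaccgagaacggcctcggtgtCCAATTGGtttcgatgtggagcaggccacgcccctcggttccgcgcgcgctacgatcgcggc
The Hmgcs1 window held 1 match to the sterol element core, TCACCCCAC, which began 137 bases before the start site. Over all 32851 windows of this length in the table, 1.05% held such a match on either strand. The windows of Fasn, Srebf2, Acaca and the 3 listed starts of Srebf1 had no such match. Of the Srebf2 window, 88 bases lie in exon as GENCODE places the gene (from 82147181), before the RefSeq start at 82147269. CCAAT was found 3 times in the Hmgcs1 window and 3 times in the Fasn window, where a forward and a reverse match run into each other, against 33.8% of all windows with at least 1 match. The Sp1 core GGGCGG, on either strand, was found 2 times for Hmgcs1 and was present in 32.7% of all windows. The E-box CANNTG was found 1 time in each of the printed windows, each time overlapping a CCAAT box, and was present in 66.2% of all windows. Each match describes letters in these windows and not a bound site.

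Libraries held between 11168552 and 17883466 counts, so that 3 counts, taken as the detection floor, correspond to between 0.159 and 0.281 CPM (read counts scaled to library size with TMM factors), which covers counting error only. Setd2 was counted 1179, 799 and 132 times under the VHL-KO label (replicates 1, 2 and 4) and 1499, 1019 and 1429 times in double-knockout replicates 2, 3 and 4, so that its counts were not lower under the double-knockout label (log2 fold change 0.52 ± 0.64 SE, edgeR quasi-likelihood adjusted p = 0.787). Without VHL-KO replicate 4 the log2 fold change of Setd2 was 0.05 ± 0.21 (SE, edgeR adjusted p = 0.913). Counts over the whole gene do not isolate the floxed part, and every direction given here is one between libraries labelled in this way. The library labelled VHL-KO replicate 4 stood apart from the others. Mitochondrial genes took 11.3% of its counts and 25.9% to 36.4% of the others, and its genes deviated from the other libraries with their GC content, by a median of -2.15 (log2) in the lowest of 4 equal bins of GC and 1.42 in the highest, where the other 5 libraries lay between -0.19 and 0.11. GC content was known for 94.4% of the tested genes. The members' results below are therefore given with and without that library.

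The 8 members followed the same gradient in VHL-KO replicate 4. Relative to the median of the other 5 libraries, Fasn, Srebf2 and Srebf1, with transcripts of 57.9%, 57.9% and 58.4% GC, were higher there by 1.82, 1.64 and 1.30 on the log2 scale. Hmgcs1, with the lowest GC content of the members at 43.1%, was lower there (-2.66), as was Scd1 at 47.1% (-1.90). Sqle, Acaca and Scd2, between 48.6% and 49.5% GC, lay between -0.73 and -0.50. Each of the 3 GC-rich members was thus raised and each of the 5 others lowered in this library. The part of GC content in the values of single members was not tested.

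**Figure D1:**
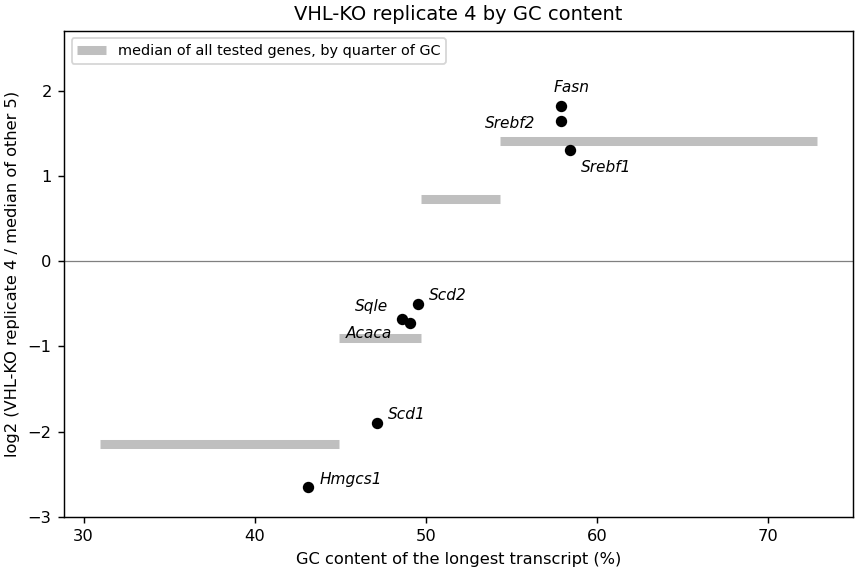
Departure of the library labelled VHL-KO replicate 4 from the median of the other 5 libraries (y axis, log2) against GC content of the longest transcript (x axis, percent), with the members as points and the median of all tested genes in each of 4 equal bins of GC as grey bars. Hmgcs1 at -2.66 lies below the median of the lowest bin (-2.15) and Fasn at 1.82 above that of the highest bin (1.42), each on the same side of 0 as its bin.

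Per kilobase of exon, Hmgcs1 was the most abundant member and Acaca the least. The level of Hmgcs1 lay between 13.7 and 129 CPM per kilobase, that of Scd2 between 12.2 and 37.7, that of Srebf2 between 7.29 and 28.2, and that of Scd1 between 3.19 and 23.3. Srebf1 (4.99 to 17.9 CPM per kilobase), Fasn (3.98 to 17.7) and Sqle (2.91 to 7.34) followed, and Acaca lay between 0.734 and 1.48. Hmgcs1 exceeded every other member in all libraries but VHL-KO replicate 4, and Acaca was below every other member in all 6. From Scd2 down to Sqle the ranges of neighbours overlapped, so that the order among them is not firm.

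**Figure D2:**
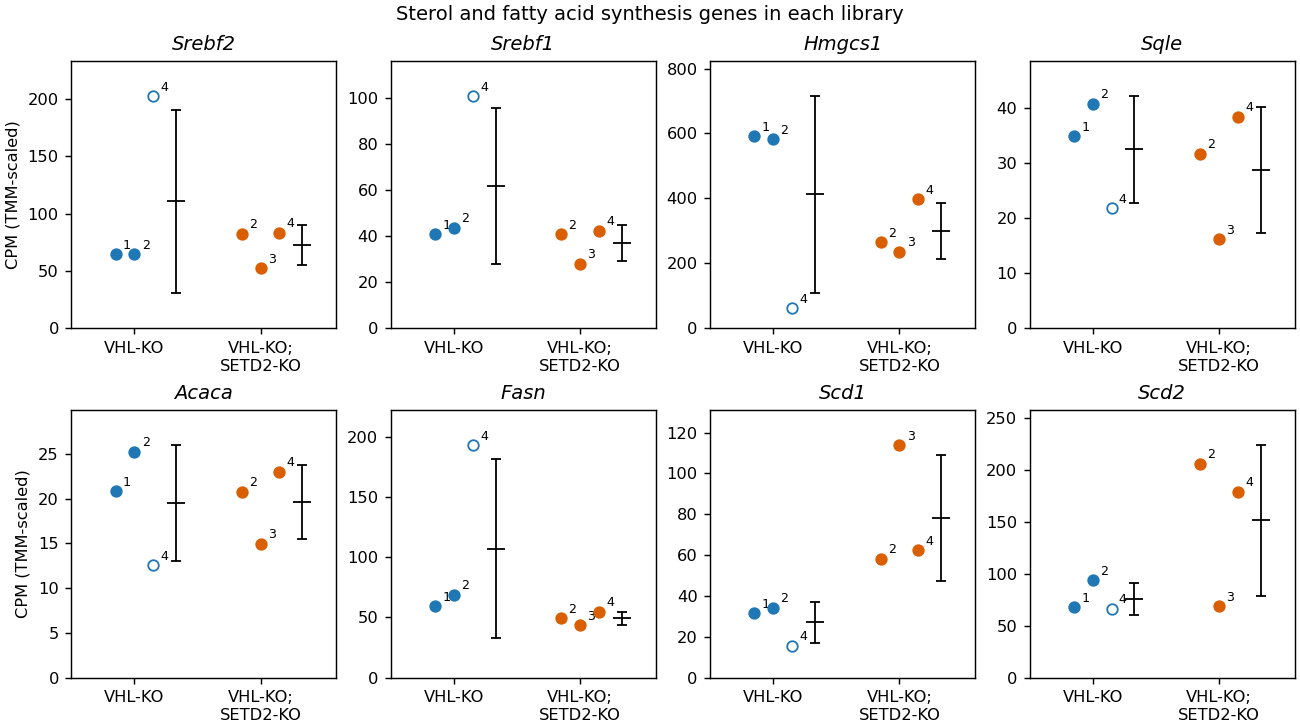
CPM of each member (y axes, linear from 0, scaled per gene) in the 3 libraries of each genotype label, numbered by replicate, with the mean and SD of 3 libraries as bars. The open circle is VHL-KO replicate 4, which is the lowest or the highest of its group for every member, though for Scd2 it sits at 66.4 beside 67.5 CPM in replicate 1.

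Scd1 was the member with the largest difference between the labels. It encodes stearoyl-CoA desaturase 1, which puts the double bond into stearate and palmitate to give oleate and palmitoleate, and lies on chromosome 19 from 44394455 to 44407879 on the minus strand. It reached 31.4, 34.1 and 15.6 CPM in VHL-KO replicates 1, 2 and 4 and 58.3, 113.9 and 62.4 CPM in double-knockout replicates 2, 3 and 4. Every double-knockout library was above every VHL-KO library, and double-knockout replicate 3 was the highest of all. The means were 27.1 ± 9.996 CPM (SD, n = 3) and 78.2 ± 31.0 CPM (SD, n = 3). The log2 fold change was 1.53 ± 0.49 (SE, 95% interval 0.42 to 2.65), with an unadjusted p of 0.0131 and an adjusted p of 0.625 by edgeR's quasi-likelihood test, so that Scd1 passed the threshold only before correction over all genes. The exact permutation p (two-sided) was 0.1, the smallest that 3 against 3 libraries can give.

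Without VHL-KO replicate 4 the log2 fold change of Scd1 was 1.25 ± 0.33 (SE, edgeR adjusted p = 0.138). DESeq2 on the same 5 libraries, an alternative added after the data had been seen, put it past the threshold (log2 fold change 1.25, adjusted p = 0.0101). Without double-knockout replicate 3 the log2 fold change was 1.16 and the unadjusted p was 0.0620 by edgeR, which ends the unadjusted call.

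Scd2, the paralogue next to Scd1 on chromosome 19 (44293674 to 44306864, plus strand), is the desaturase of brain and of many cells outside liver. It had 67.5, 93.8 and 66.4 CPM under the VHL-KO label and 206, 68.8 and 179 CPM in double-knockout replicates 2, 3 and 4. Double-knockout replicates 2 and 4 were above all other libraries, while replicate 3 lay among the VHL-KO libraries, so that the groups overlapped. The means were 75.9 ± 15.5 and 151 ± 72.6 CPM (SD, n = 3 each). The log2 fold change was 0.99 ± 0.50 (SE, edgeR unadjusted p = 0.0813, adjusted p = 0.625), and 0.90 ± 0.47 without VHL-KO replicate 4 (edgeR adjusted p = 0.335). Without double-knockout replicate 3 it was 1.35, with an unadjusted p of 0.0236 by edgeR.

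The desaturases differed in which double-knockout library was highest, replicate 3 for Scd1 and replicate 2 for Scd2. Per length, Scd1 stood at 0.519, 0.406 and 0.263 of Scd2 in the VHL-KO libraries, at 0.316 and 0.390 in double-knockout replicates 2 and 4, and at 1.85 in replicate 3, the only library with more Scd1 than Scd2. The transcripts share 2.97% of the 50-base words of Scd1 and 2.66% of those of Scd2, so that most of their sequence is distinct. Scd3 and Scd4, the remaining mouse desaturases of this cluster, were below the test's filter and at or under 0.531 CPM in all 6 libraries.

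The level of Scd2 varied over the libraries much as a sum of endothelial marker genes did. How many other genes vary as closely with this sum was not counted. The 6 endothelial markers (Pecam1, Kdr, Cdh5, Emcn, Flt1 and Tie1) summed to 1064 to 1797 CPM in the VHL-KO libraries and to 4257, 1316 and 3514 CPM in double-knockout replicates 2, 3 and 4. None of the 6 was at 0 in any library, all 6 had a positive log2 fold change and 0 of 6 passed the unadjusted threshold. The markers diverged in VHL-KO replicate 4. Kdr had 209.6 CPM there against 579.7 and 708.2 CPM in VHL-KO replicates 1 and 2. Tie1 had 235.8 CPM there against 94.0 and 115.3 CPM. Per 1000 CPM of the 6 markers, Scd2 stood at 44.3, 52.2 and 62.4 CPM in the VHL-KO libraries and at 48.4, 52.3 and 50.9 CPM in the double-knockout libraries. This ratio spanned 1.41-fold from the lowest to the highest library, where Scd2 itself spanned 3.10-fold. Scd1 per 1000 CPM of the same markers lay between 13.7 and 20.6 CPM in 5 libraries and at 86.6 CPM in double-knockout replicate 3.

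Podocyte markers were spread over the libraries in a similar way. The 6 markers, among them Nphs1, Podxl, Synpo, Wt1 and Ptpro, summed to 1489 to 2128 CPM under the VHL-KO label and to 5014, 2042 and 4461 CPM under the double-knockout label. Of the 6, 4 were called higher at an unadjusted p, where 2.65% of all tested genes were. Scd2 per 1000 CPM of podocyte markers lay between 31.2 and 46.7 CPM, a span of 1.497-fold. Macrophage markers, 7 in number, summed to between 113 and 311 CPM under the VHL-KO label and 75.2 to 262 CPM under the double-knockout label, and the 7 fibroblast markers to 82.0 to 323 CPM and 77.3 to 222 CPM. The part of endothelial and podocyte RNA in the levels of Scd2 was not tested, and in bulk samples fewer cells of a type and less RNA per cell cannot be told apart.

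Double-knockout replicate 3, the library with the most Scd1, also differed from the rest in other markers. The 8 thick limb and distal tubule markers summed to 4417 CPM there and to 1610 and 1911 CPM in double-knockout replicates 2 and 4. The 10 collecting duct markers summed to 384 CPM there and to 108 and 116 CPM in the other double-knockout libraries. VHL-KO replicate 4, which had the least Scd1, had larger sums still for both lists, 4829 and 641 CPM. Single markers of these lists diverged in VHL-KO replicate 4. Umod and Aqp2 had 2955 and 258 CPM there, their highest of all libraries. Slc12a1, Kcnj1, Calb1 and Atp6v1g3 had 79.2, 19.8, 42.5 and 2.71 CPM there, their lowest. In double-knockout replicate 3 the latter were at their highest, with 370, 274, 565 and 24.8 CPM. Adipocyte markers, 8 in all, summed to 81.3 CPM in double-knockout replicate 3 against 6.17 to 27.8 CPM in the other 5 libraries, mostly through Fabp4, which endothelial cells also express and which was called higher at an unadjusted p (log2 fold change 1.90). Cfd (adipsin), of the same list, had 4.79 CPM in double-knockout replicate 3 and 0.281 CPM or less in the other 5 libraries, and Plin4 had 3.38 CPM there against 0.691 to 1.88 CPM. Adipoq, Plin1, Cidec and Retn were also highest in that library, at 0.225, 0.113, 0.338 and 0.225 CPM. These values are 4, 2, 6 and 4 counts, near or under the floor of 3 counts, and none of these genes passed the test's filter. Lep did not exceed 0.0935 CPM in any library. Xist, the RNA of the inactive X chromosome and named here after its values were seen, had 11704 counts in double-knockout replicate 3 and between 0 and 4 counts in the other 5 libraries. Sex is not given in the sample labels, and by this count double-knockout replicate 3 alone has the RNA of female cells. The part of these differences in the level of Scd1 was not tested.

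**Figure D3:**
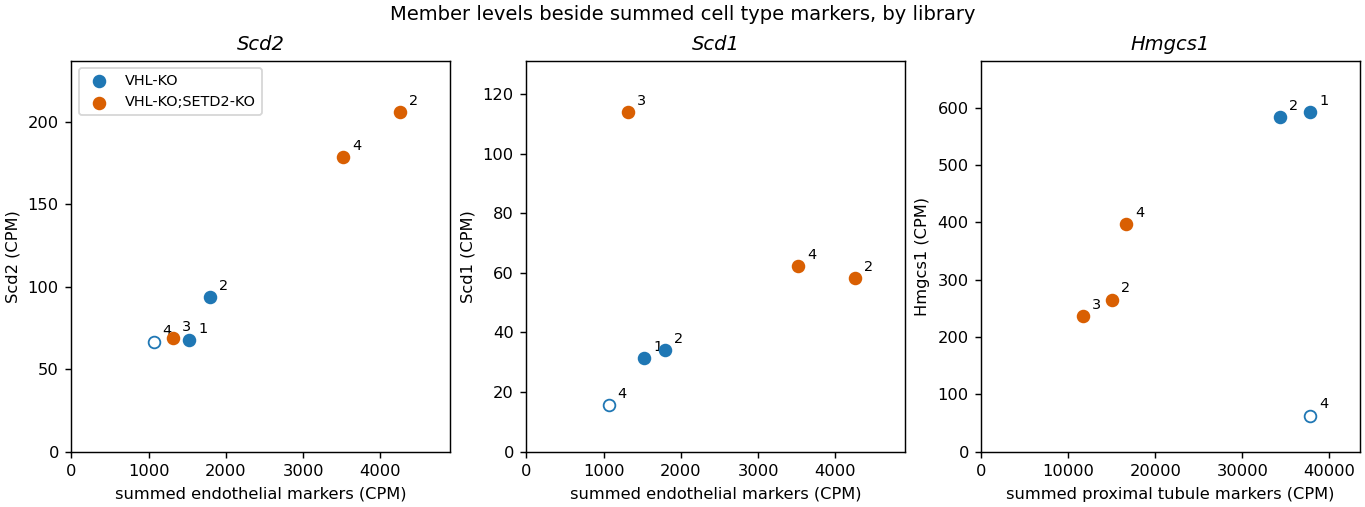
Scd2 and Scd1 (y axes, CPM) against the summed CPM of 6 endothelial markers, and Hmgcs1 against the summed CPM of 12 proximal tubule markers, with 1 point per library, numbered by replicate (open circle, VHL-KO replicate 4). The ratio of Scd2 to the endothelial sum lies between 44.3 and 62.4 per 1000 CPM, and that of Scd1 is highest in double-knockout replicate 3 (86.6). The ratio of Hmgcs1 to the proximal sum is lowest in VHL-KO replicate 4 (1.67), where single markers of that sum shifted in opposite directions.

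Hmgcs1 encodes the cytosolic HMG-CoA synthase, which joins acetyl-CoA and acetoacetyl-CoA early in sterol synthesis, and lies on chromosome 13 (119690379 to 119708260, plus strand). It had 592, 583 and 63.0 CPM in VHL-KO replicates 1, 2 and 4 and 265, 236 and 397 CPM in double-knockout replicates 2, 3 and 4. VHL-KO replicates 1 and 2 were above all double-knockout libraries and VHL-KO replicate 4 was far below them. The means were 413 ± 303 and 299.7 ± 85.8 CPM (SD, n = 3 each). Over all 6 libraries the log2 fold change was -0.46 ± 0.75 (SE, 95% interval -2.19 to 1.27, edgeR adjusted p = 0.830). Without VHL-KO replicate 4 it was -0.98 ± 0.26 (SE, 95% interval -1.61 to -0.34), which passed the threshold before correction but not after it (edgeR unadjusted p = 0.0092, adjusted p = 0.141). DESeq2 on those 5 libraries, added after the data had been seen, gave -0.98 and an adjusted p of 0.00991. The exons of Hmgcs1 overlap those of the antisense gene Gm48342 by 557 bases, and use of strand in the counting is not given in the sources used here.

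The 12 proximal tubule markers were lower under the double-knockout label as well. They summed to 37789, 34267 and 37734 CPM in VHL-KO replicates 1, 2 and 4. The sums were 14976, 11653 and 16607 CPM in double-knockout replicates 2, 3 and 4. Of the 12 markers, 11 had a negative log2 fold change, none was at 0, and 4 were called lower at an unadjusted p (4.68% of all tested genes were). The near equal VHL-KO sums hid opposite shifts of single markers in replicate 4. Slc34a1 had 14206 CPM there against 4979 and 4759 CPM in replicates 1 and 2. Kap had 7619 CPM there against 18289 and 16188 CPM, and Lrp2 had 940 CPM against 3384 and 3351 CPM. Ratios of replicate 4 to the sum carry these shifts. Per 1000 CPM of the 12 markers Hmgcs1 stood at 15.7 and 17.0 CPM in VHL-KO replicates 1 and 2 and at 1.67 CPM in replicate 4. It stood at 17.7, 20.3 and 23.9 CPM in the double-knockout libraries, not below VHL-KO replicates 1 and 2. This ratio leans on Kap, the largest single marker in VHL-KO replicates 1 and 2. Kap had 6760, 1216 and 6966 CPM in double-knockout replicates 2, 3 and 4, and no ratio without it was computed. Per 1000 CPM of all 12 markers Fasn stood at 1.58 and 2.01 CPM in VHL-KO replicates 1 and 2 and at 5.12 CPM in replicate 4. It stood at 3.31, 3.74 and 3.30 CPM in the double-knockout libraries, above replicates 1 and 2. Acaca stood at 0.550, 0.737 and 0.332 CPM in the VHL-KO libraries and at 1.39, 1.29 and 1.39 CPM in the double-knockout libraries. These ratios of Acaca did not overlap between the labels, though its CPM did. The marker sums alone do not overlap, so that a gene of unchanged level also gives ratios without overlap. The share of all genes with such ratios was not counted. The part of proximal tubule RNA in the differences of these members was not tested.

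Sqle encodes squalene epoxidase, the first oxygen-requiring step of sterol synthesis (chromosome 15, 59315077 to 59331192, plus strand). It had 34.8, 40.7 and 21.8 CPM under the VHL-KO label and 31.6, 16.2 and 38.3 CPM under the double-knockout label. Replicate 3 was the low library of the double-knockout label and the groups overlapped. The means were 32.4 ± 9.68 and 28.7 ± 11.4 CPM (SD, n = 3 each), and the log2 fold change was -0.18 ± 0.46 (SE, 95% interval -1.24 to 0.88, edgeR adjusted p = 0.897), or -0.40 ± 0.35 without VHL-KO replicate 4. Its sign turned when VHL-KO replicate 2 or double-knockout replicate 3 was left out (0.03 and 0.11). The level of Hmgcs1 per length was 20.5, 17.3 and 3.49 times that of Sqle in the VHL-KO libraries and 10.1, 17.7 and 12.5 times in the double-knockout libraries.

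Fasn encodes fatty acid synthase, which assembles palmitate from acetyl-CoA and malonyl-CoA (chromosome 11, 120805846 to 120824547, minus strand). It had 59.5, 68.7 and 193 CPM in VHL-KO replicates 1, 2 and 4 and 49.5, 43.6 and 54.8 CPM in double-knockout replicates 2, 3 and 4. All VHL-KO libraries were above all double-knockout libraries, by a small margin except in VHL-KO replicate 4. The means were 107 ± 74.7 and 49.3 ± 5.59 CPM (SD, n = 3 each). The log2 fold change was -1.12 ± 0.53 (SE, 95% interval -2.35 to 0.10), with an unadjusted p of 0.0680 and an adjusted p of 0.625 by edgeR, and the exact permutation p was 0.1. Without VHL-KO replicate 4 the difference shrank to -0.38 ± 0.15 (SE, 95% interval -0.75 to -0.01, edgeR adjusted p = 0.234), a fold of 1.30, under the fold of 1.5 required for a call. Without VHL-KO replicate 1 it was -1.39 and passed that call (edgeR unadjusted p = 0.0409).

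Acaca encodes acetyl-CoA carboxylase 1, which makes the malonyl-CoA that Fasn uses (chromosome 11, 84129672 to 84401651, plus strand). It had 20.8, 25.3 and 12.5 CPM under the VHL-KO label and 20.8, 14.98 and 23.0 CPM under the double-knockout label. The groups overlapped throughout, with means of 19.5 ± 6.46 and 19.6 ± 4.15 CPM (SD, n = 3 each). The log2 fold change was 0.0044 ± 0.42 (SE, 95% interval -0.95 to 0.96, edgeR adjusted p = 0.998), and without VHL-KO replicate 4 it was -0.24 ± 0.22. Per length, Fasn stood at 3.71 to 4.54 times Acaca in all libraries but VHL-KO replicate 4, where it stood at 24.1 times.

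Srebf1 (chromosome 11, 60199089 to 60222581, minus strand) had 41.0, 43.7 and 101 CPM under the VHL-KO label and 40.8, 28.1 and 42.5 CPM under the double-knockout label. VHL-KO replicate 4 was the high library and the other 5 lay within 1.55-fold of each other. The means were 61.9 ± 33.9 and 37.1 ± 7.86 CPM (SD, n = 3 each), and the log2 fold change was -0.74 ± 0.48 (SE, 95% interval -1.84 to 0.37, edgeR adjusted p = 0.642), or -0.19 ± 0.21 without VHL-KO replicate 4 (95% interval -0.70 to 0.31). Its exons overlap those of Rai1 on the other strand by 109 bases, and Rai1 had 25.3 to 33.4 CPM. Srebf1 is induced by liver X receptors as well as by its own product.

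Srebf2 (chromosome 15, 82147181 to 82205379, plus strand) had 64.8, 64.8 and 203 CPM under the VHL-KO label and 82.7, 52.4 and 83.3 CPM under the double-knockout label. As for Srebf1, the high value was in VHL-KO replicate 4 and the low value in double-knockout replicate 3. The means were 111 ± 79.6 and 72.8 ± 17.7 CPM (SD, n = 3 each). The log2 fold change was -0.60 ± 0.55 (SE, 95% interval -1.88 to 0.67, edgeR adjusted p = 0.727) and turned to 0.16 ± 0.23 (95% interval -0.40 to 0.72) without VHL-KO replicate 4. The ratio of Srebf2 to Srebf1 per length stayed between 1.16 and 1.59 in all 6 libraries, a span of 1.37-fold, while Srebf1 spanned 3.59-fold and Srebf2 3.87-fold.

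Of the 8 members, 1 was called (unadjusted p under 0.05 and a fold of at least 1.5), namely Scd1, where 7.33% of all tested genes were called (2.65% higher and 4.68% lower). None of the 8 was called at an adjusted p, where 0.00684% of all tested genes were (Gm6344 alone, chosen here after its values were seen). DESeq2 on all 6 libraries called Scd1 and Fasn at an unadjusted p, where it called 1551 genes in all. It gave no adjusted p for 6 of the 8. The labels did not overlap for 2 of the 8, Scd1 higher and Fasn lower, against 20.6% of all tested genes (9.62% higher and 11.0% lower). On the 5 libraries other than VHL-KO replicate 4, edgeR called Scd1 higher and Hmgcs1 lower at an unadjusted p, against 15.4% of tested genes (8.29% higher and 7.14% lower), and 0 of the 8 at an adjusted p, against 0.00667%. Of the members, 3 (Scd1 higher, Hmgcs1 and Fasn lower) did not overlap between the labels in those 5 libraries, against 41.5% of tested genes. DESeq2 on those 5 libraries called 2 of the 8, Scd1 and Hmgcs1, at an adjusted p, where it called 8.25% of all genes.

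**Figure D4:**
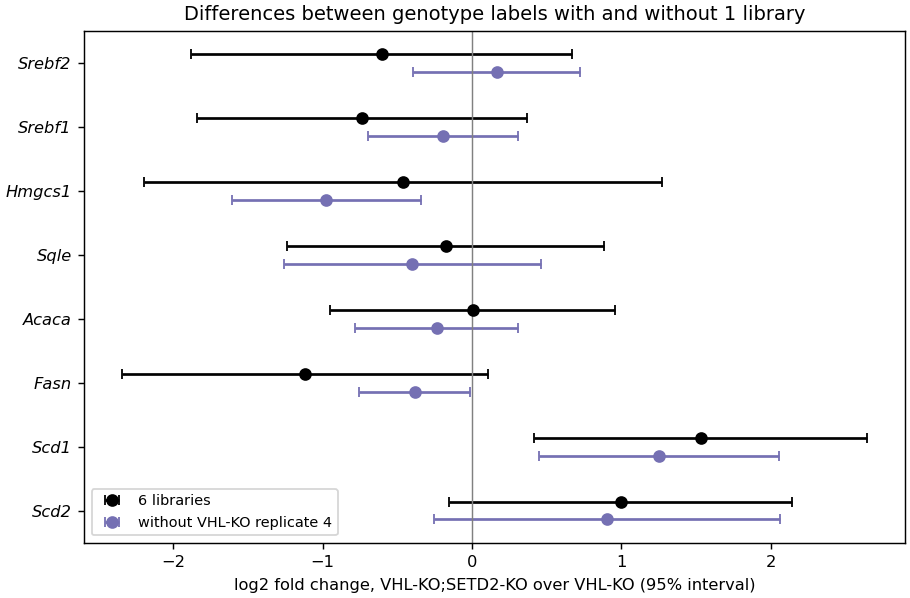
Log2 fold change of each member in double-knockout over VHL-KO libraries (x axis) with its 95% interval from edgeR's quasi-likelihood fit, over all 6 libraries (black) and without VHL-KO replicate 4 (purple). Only the interval of Scd1 (0.42 to 2.65) lies clear of 0 over all 6 libraries, and those of Scd1, Hmgcs1 and Fasn do without VHL-KO replicate 4.

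Other genes of the same pathways were described from lists of 21 cholesterol synthesis genes, 26 genes of fatty acid synthesis and desaturation, 15 regulators of SREBP and 12 genes of cholesterol uptake and efflux, which include the members. No gene of these lists passed the adjusted threshold of edgeR's quasi-likelihood test, with or without VHL-KO replicate 4. All 21 cholesterol synthesis genes were tested, and 18 had a negative and 3 a positive log2 fold change, with a median of -0.54 against 0.01 over all tested genes. The 12 proximal tubule markers, whose sums are given above, moved with this list, with a median of -1.27, or -0.86 without VHL-KO replicate 4, and their part in it was not tested. Of the 21 cholesterol synthesis genes, 0 were called higher and 4 lower at an unadjusted p, where 2.65% and 4.68% of all tested genes were. Left without VHL-KO replicate 4, the list had a median of -0.40 against 0.03, with 0 called higher and 6 lower, among them Acat2, Hmgcs1, Mvd, Cyp51 and Nsdhl. Of all tested genes, 8.29% were called higher and 7.14% lower without that library.

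Mvd, the mevalonate diphosphate decarboxylase, had 35.8, 38.3 and 148 CPM in VHL-KO replicates 1, 2 and 4 against 20.9, 19.1 and 22.4 CPM in double-knockout replicates 2, 3 and 4 (log2 fold change -1.83, edgeR unadjusted p = 0.0175, adjusted p = 0.625). It was high in VHL-KO replicate 4 yet also above every double-knockout library in replicates 1 and 2, and its log2 fold change without replicate 4 was -0.84. Acat2, which forms acetoacetyl-CoA, had 68.6, 63.0 and 127 CPM against 37.8, 46.5 and 39.8 CPM (-1.06, and -0.67 without VHL-KO replicate 4). Ebp, the sterol isomerase, had 53.2, 66.5 and 235 CPM against 36.5, 48.7 and 41.1 CPM (-1.49, and -0.51 without VHL-KO replicate 4). The groups did not overlap for any of these 3 genes, as for 11.0% of all tested genes in this direction. The 3 were named for an unadjusted p under 0.05, so that their separation is not a separate result.

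Ggps1, which makes geranylgeranyl diphosphate in a branch off the sterol route, had the largest positive value of the list (0.69, edgeR adjusted p = 0.718), with 29.3, 31.3 and 5.52 CPM against 37.6, 35.4 and 33.6 CPM.

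In the fatty acid list, 22 of 26 genes were tested, with a median log2 fold change of -0.27. At an unadjusted p, 1 was called higher, Scd1, and 5 lower, against 2.65% and 4.68% of all tested genes. The median was -0.22 without VHL-KO replicate 4, with 1 called higher and 5 lower (Acss2, Me1, Hacd2, Fads2 and Fads3), against 8.29% and 7.14% of all tested genes. Acss2, which makes acetyl-CoA from acetate in the cytosol, had 234, 206 and 491 CPM against 106, 82.2 and 109 CPM (-1.65, edgeR unadjusted p = 0.00896, and -1.15 without VHL-KO replicate 4). Fads2, the delta-6 desaturase of polyunsaturated fatty acids, had 93.4, 90.0 and 256 CPM against 39.5, 52.1 and 54.1 CPM (-1.59, and -0.92 without VHL-KO replicate 4). Fads3, its neighbour in the same cluster, had 149, 136 and 392 CPM against 86.0, 67.2 and 87.0 CPM (-1.495, and -0.84). For these 3 genes, named for their p, all VHL-KO libraries were above all double-knockout libraries, as for 11.0% of all tested genes. Their direction was opposite to that of Scd1 and Scd2.

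Hacd2, a dehydratase of very long chain fatty acid elongation, depended little on VHL-KO replicate 4. It had 60.4, 58.4 and 58.8 CPM under the VHL-KO label and 28.5, 33.96 and 34.9 CPM under the double-knockout label, that is 59.2 ± 1.05 against 32.5 ± 3.43 CPM (SD, n = 3 each). The log2 fold change was -0.87 ± 0.35 (SE, edgeR unadjusted p = 0.0388, adjusted p = 0.625) and -0.88 without VHL-KO replicate 4. Slc25a1, the mitochondrial citrate carrier, was also called lower at an unadjusted p (-1.98) at 6.12, 0.648 and 3.09 CPM against 0.585, 1.46 and 0.439 CPM, with overlapping groups.

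**Figure D5:**
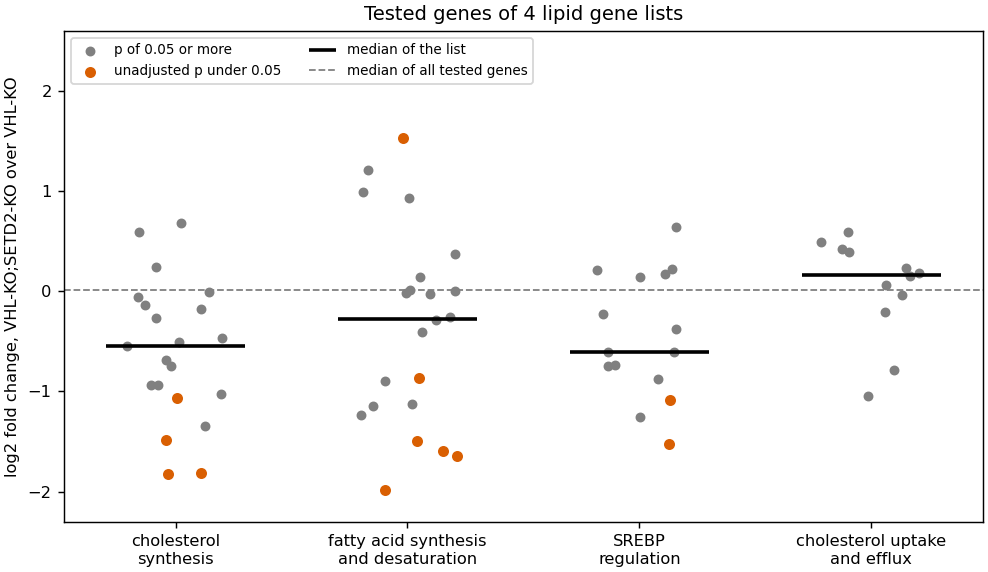
Log2 fold change (y axis, double-knockout over VHL-KO, 6 libraries) of each tested gene in 4 lipid gene lists, with the median of each list as a black bar and that of all tested genes as a dashed line. Genes with an unadjusted edgeR p under 0.05 are orange, and all of them but Scd1 at 1.53 lie below 0.

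Among the 15 regulators of SREBP, 0 were called higher and 2 lower at an unadjusted p, against 2.65% and 4.68% of all tested genes. Their median was -0.60 and moved to -0.24 without VHL-KO replicate 4. Nr1h3, the liver X receptor alpha, had 25.8, 26.4 and 103 CPM against 15.1, 23.5 and 15.1 CPM (-1.53, and -0.54 without VHL-KO replicate 4). Mlx, the partner of the carbohydrate response factors, had 41.2, 35.6 and 87.4 CPM against 26.6, 24.7 and 25.9 CPM (-1.09, and -0.58). For both, all VHL-KO libraries were above all double-knockout libraries, as for 11.0% of all tested genes. Mlxipl (ChREBP), the glucose-responsive factor that also drives Fasn, was called lower without VHL-KO replicate 4 (-1.05, edgeR unadjusted p = 0.0112), and had 169.9, 168 and 72.6 CPM against 52.9, 107 and 84.5 CPM. Fbxw7, which marks nuclear SREBP for degradation, had the largest positive value of the list (0.64, edgeR adjusted p = 0.682), at 13.9, 14.9 and 4.86 CPM against 20.3, 13.4 and 18.9 CPM. Insig1, a sterol-responsive retention protein, had 35.3, 48.3 and 8.98 CPM against 42.8, 13.6 and 45.9 CPM (0.14, edgeR adjusted p = 0.946).

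Of the 12 uptake and efflux genes, 0 were called in either direction over all 6 libraries, and Scarb1, a receptor for high-density lipoprotein, was called higher without VHL-KO replicate 4 (0.77, edgeR unadjusted p = 0.0407). Mylip, a ubiquitin ligase induced by liver X receptors, had the largest positive value of the list (0.59, edgeR adjusted p = 0.723) with 52.2, 77.9 and 18.8 CPM against 81.7, 64.4 and 78.3 CPM.

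Double-knockout replicate 3 was the low library for many sterol genes. Among the 5 libraries without VHL-KO replicate 4, it had the lowest level for 6 of the 8 members (Hmgcs1, Sqle, Srebf1, Srebf2, Fasn and Acaca) and the highest for 1, Scd1. It was the lowest for 13 of the 21 cholesterol synthesis genes (61.9%), 8 of the 15 regulators (53.3%), 7 of the 22 tested fatty acid genes (31.8%) and 4 of the 12 uptake and efflux genes (33.3%), against 24.7% of all tested genes. The same library was the highest for 8 of the 22 fatty acid genes (36.4%) and 3 of the 12 uptake and efflux genes (25.0%). Of the 21 cholesterol synthesis genes 2 (9.52%) were highest there, and of the 15 regulators 0, against 26.8% of all tested genes. Idi1, the isopentenyl diphosphate isomerase, had 3.94 CPM there against 13.8 to 19.5 CPM in the other 4 libraries. For Insig1 the level was 13.6 CPM against 35.3 to 48.3 CPM. These counts rank 1 library against 4 and were made after its values were seen, and the marker sums and Xist counts of that library given above move with them.

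Genes with the most similar pattern were taken as those with the smallest root mean square difference from a member in log2 CPM centred on each gene's mean. Over the 6 libraries, 12402 genes were compared. The nearest to Scd2 were Csf1 (0.09), a macrophage growth factor, and Pecam1 (0.10), an adhesion molecule of endothelial cells and one of the markers above. Over the 5 libraries they were Plxna4 (0.04) and Kcnj5 (0.05). Those nearest to Scd1 were Cadps2 (0.09) and Tmem52b (0.12), and without VHL-KO replicate 4 Cdh3 and Atp2b4 (0.05 each). Pias4 was the nearest gene to Srebf1 both over 6 libraries (0.03) and over 5 (0.02).

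The nearest genes to the other members changed when VHL-KO replicate 4 was left out. They were Crot and Gm5454 for Hmgcs1, and Glis1 and LOC108168395 over the 5 libraries. For Fasn they were Trmt112 and Nop9, then Mia3 and Heatr1, and for Srebf2 Dgkz and Coro1c, then Btbd7 and Dennd6a. For Sqle they were Tgif1 and Zc3h12a, then Dll1 and Plcxd2, and for Acaca Irgm1 and Glg1, then D930015E06Rik and Cdk12. Among the members themselves, Srebf1 was closest to Srebf2 over 6 libraries (0.18) and to Acaca over 5 (0.07). Sqle and Acaca were each other's nearest member over 6 libraries (0.23).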

How the data were processed

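RNA-seq libraries of PTECs from 6 mice were grouped by the genotype in their sample labels, with the age, the Cre line and the number of mice taken from the paper's methods. The authors extracted total RNA, prepared directional paired-end Illumina libraries and deposited raw read counts per gene symbol. HISAT2 2.0.4 and GRCm38 are named in the submitters' processing notes. The counting program, the annotation and the use of strand are not given in the sources used here. Of the per-sample columns, 0 were left unused.

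From the deposited counts, edgeR 4.0.16 in R 4.3.3 gave TMM factors and quasi-likelihood tests of the genotype label over the 14611 genes that passed filterByExpr, with Benjamini-Hochberg adjustment over all of them. A call required p under 0.05 and a fold of at least 1.5, and a prior count of 2 was used for log2 CPM. P-values named edgeR, DESeq2 (1.42.0) or limma (3.58.1) are from these fits, and the fits were tested on simulated data. P-values measure the spread between 3 mice per label. Gene positions, exon lengths and GC content came from the GENCODE annotation of GRCm38, promoter windows from RefSeq for GRCm38.p6. Motifs were searched on both strands.

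The members and lists were chosen with earlier results of these data known. Named genes are the members, Insig1, list genes with an unadjusted p under 0.05, the list gene with the largest difference in each direction, and the 2 genes most like each member, though some genes under this rule are not reported here. Idi1, Scarb1, Mlxipl, Cyp51, Nsdhl, Me1, Scd3 and Scd4 were named once their values were known. Both labels have a replicate 2 and a replicate 4. Alternatives were RLE size factors, DESeq2, limma-voom, no filter, at least 10 counts in every library, 37 mitochondrial genes left out, a replicate block and each library left out. DESeq2 without VHL-KO replicate 4 was added after the data were seen.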

Additional observations from a re-analysis of the deposited data

How the results depend on the processing

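Of 112 log2 fold changes of the 8 members under 14 alternatives, 97 kept their direction and were not put past the adjusted threshold. A value without an adjusted p was counted as not past it. DESeq2 on all 6 libraries gave no adjusted p for 6 of the 8, Scd1 and Fasn among them. Scd1, Scd2, Fasn and Srebf1 kept their direction under every alternative run. With limma-voom Hmgcs1 turned to 0.069. With RLE size factors and with DESeq2 Acaca turned to -0.0376 and -0.0378. Leaving out each library in turn gave -0.43 to 0.11 for Sqle, -0.85 to 0.16 for Srebf2 and -0.24 to 0.24 for Acaca. DESeq2 without VHL-KO replicate 4 put Hmgcs1 (-0.98) and Scd1 (1.25) past the adjusted threshold and gave 0.16 for Srebf2 and -0.24 for Acaca. The cause of these changes was not tested. Same-numbered libraries were not shown to be paired, since their deviations correlated at 0.16 for number 2 and -0.32 for number 4. With the number as a block Hmgcs1 (0.76) and Sqle (0.22) turned positive, 0 members and 147 genes were called at an unadjusted p, and 1 gene at an adjusted p.

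The 1 member called at an unadjusted p became 2 with DESeq2, 2 with DESeq2 without VHL-KO replicate 4, which also called 2 at an adjusted p, and 1 to 2 when each library was left out, where the member called without double-knockout replicate 3 was Scd2 and not Scd1. Of all genes, 1071 were called at an unadjusted p, 1551 with DESeq2, 385 to 2314 with each library left out and 2518 with DESeq2 without VHL-KO replicate 4. At an adjusted p, 1 gene was called, 51 with DESeq2, 2 with no filter, 0 with at least 10 counts in every library, 0 to 1 with each library left out and 1238 with DESeq2 without VHL-KO replicate 4. With 3 libraries per label and 1 that departs with GC content, the intervals of Hmgcs1, Sqle, Srebf2 and Acaca cover 1.5-fold differences in both directions.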
